A study of Mus musculus with 4 samples.

Results

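Nucleoporins and nuclear transport receptors were taken as all probes, control spots left out, whose gene name in the scanner files begins with Nup, Ipo or Xpo followed by a digit, or with Kpna or Kpnb. The rule used names only, but the list was chosen with earlier results of these data known. This rule found 58 of the 39429 probes on the array, which stand for 40 genes. Of these, 54 probes of 38 genes gave a signal well above background in both samples of a group and were tested. The 4 probes of Nup62cl and Kpna7 were not well above background on any array and were not tested.

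Spleen cells of female C57BL/6 mice aged 8 weeks were kept in culture for 72 h with LPS and IL-4, a mixture that activates B cells and starts class switch recombination. The imatinib group had 10 µM imatinib, which blocks ABL, KIT and PDGF receptor kinases, in the medium. The control group had the same medium without it. RNA of each group was hybridised to 2 one-colour Agilent arrays. Separate cultures or animals are not stated for the 2 samples of a group, so the p-values measure the spread between these arrays, which may be technical.

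Traffic between nucleus and cytoplasm passes through the nuclear pore complex, a ring-shaped channel built of nucleoporins. Scaffold nucleoporins form an outer ring, the Y complex, and an inner ring. Nucleoporins rich in phenylalanine-glycine (FG) repeats fill the channel, and further nucleoporins make up the cytoplasmic filaments, the nuclear basket and the membrane anchor. Importins carry cargo in and exportins carry it out, with direction set by the small GTPase Ran. In classical import an importin alpha adaptor (Kpna) binds the nuclear localisation signal of the cargo and importin beta 1 (Kpnb1) takes the pair through the pore. Dividing cells build new pores at the end of mitosis and during interphase. Exportin 1 (Xpo1) is known to export the class switch enzyme AID from the nucleus.

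All 14 B cell markers looked up were measured above background, with 4 higher, 6 lower and a median log2 difference of -0.03. The 75th percentile of the processed signal, to which each array was scaled, was 699 and 678 with imatinib and 739 and 854 in control. No spot was saturated, and all 4 arrays lay on 1 slide. With 2 arrays in each group no exact test of a single value can pass 0.05, and every p below comes from a limma fit over all tested probes with Benjamini-Hochberg adjustment, with an adjusted p under 0.05 as the threshold. Signals are log2 values with the 75th percentile of their array set to 0, and differences are imatinib minus control.

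Transcripts of the nuclear pore and of its transport receptors were lower with imatinib for most members. Of the 54 probes tested, 36 fell, 3 rose and 15 did not pass. Across all 25375 tested probes 22.5% fell and 19.3% rose (41.9% in either direction, against 72.2% of member probes), so the 66.7% of member probes that fell lay above the share in the whole table, and the 5.56% that rose lay below it. Of the member probes 44 had a difference below 0, against 49.9% of all tested probes. The median difference of the member probes was -0.34, against 0.00090 for all tested probes. With 1 probe for each gene, the brightest, 27 of 38 genes fell and none rose, with a median of -0.34. Of those 38 genes, 33 had a difference below 0, and the range ran from -0.77 to 0.16. No member reached a 2-fold change at this scaling.

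Member probes were brighter than most probes of the array, and bright probes fell more often. Of the 36 member probes with a mean signal above the 75th percentile, 29 fell and none rose (80.6% fell). Of all 9543 such probes, 34.2% fell and 14.4% rose, with a median difference of -0.11 against -0.40 for the members. The 18 dimmer member probes divided into 7 that fell, 3 that rose and 8 that did not pass, with a median of -0.18.

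**Figure D1:**
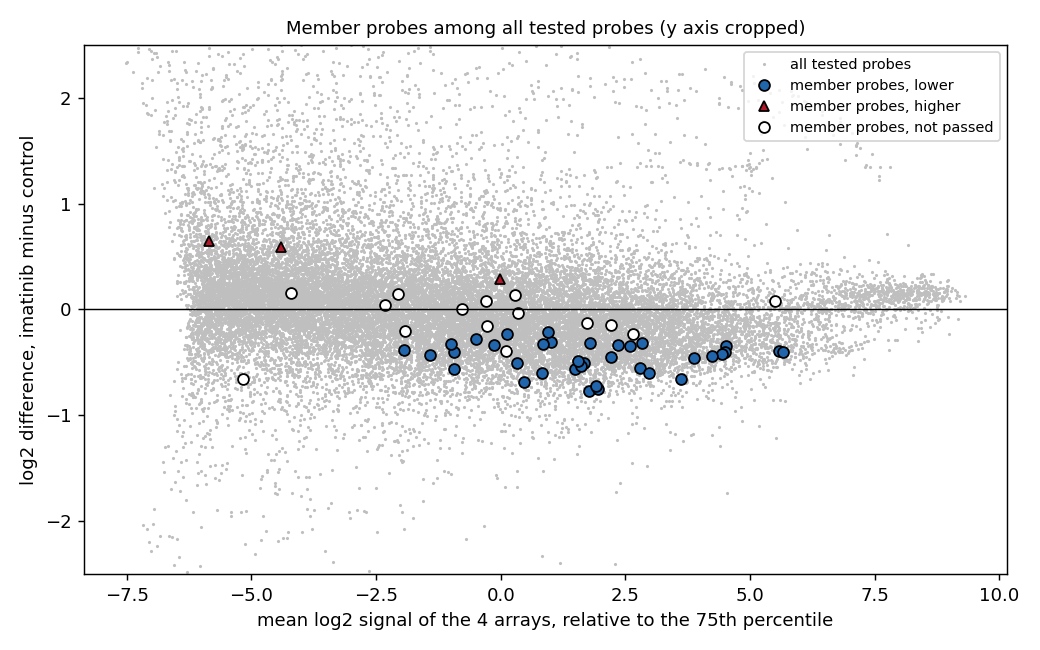
Log2 difference (imatinib minus control) against the mean log2 signal of the 4 arrays for all 25375 tested probes (grey), with the 54 member probes drawn by call. The 36 member probes that fell lie across the middle and bright range, 2 of the 3 that rose lie at the dim end, and 287 grey probes lie beyond the y axis.

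The arrays of the imatinib and control groups did not overlap for 48 of the 54 member probes, against 73.7% of all tested probes. For 43 of the 54 the groups did not overlap with the imatinib arrays lower, against 38.4% of all 25375 tested probes. Single genes described below as separated had been picked for passing or for large differences on these same arrays. The number of calls rested on having both imatinib arrays. Without imatinib replicate 1, 8 member probes fell (14.8%, against 6.13% of all probes), and without imatinib replicate 2, 7 did (13.0%, against 6.40%). It was 22 without control replicate 2 (40.7%, against 14.5%), while the median stayed between -0.38 and -0.34 whichever array was left out.

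Markers of other cell types moved in the same arrays. Of 17 T cell markers measured, 15 were higher with imatinib and none lower, with a median of 1.97. Averaged over the list, signals were 0.57 and 0.58 with imatinib and -0.97 and -1.06 in control. Of 15 macrophage markers measured, 11 were higher and none lower, with a median of 1.66 and mean signals of -1.02 and -0.95 with imatinib and -2.58 and -2.65 in control, and 4 further listed genes were not above background. Of 9 neutrophil markers measured, 6 were higher and 1 lower (median 0.95), and of 5 erythroid markers 2 were higher (median 0.44). Of all tested probes 19.3% were higher and 22.5% lower. Msr1 of the macrophage list and S100a9 of the neutrophil list, both counted as higher, entered the test through the imatinib group alone. Their direction is therefore not independent of the filter. The part of these cell types in the lower signals of the pore and transport genes was not tested. In a mixed culture fewer cells of a type and less RNA per cell cannot be told apart.

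The 10 genes with the largest differences among those that passed, by their brightest probe, were Nup43, Nup35, Kpnb1, Nup107, Nup37, Xpo4, Nup54, Nup133, Ipo5 and Kpna3. All 10 fell, and they come from the outer ring, the inner ring, the channel and both kinds of transport receptor. Nup210l, a dim and variable gene that did not pass, had a difference of -0.65, larger than those of 6 of them.

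**Figure D2:**
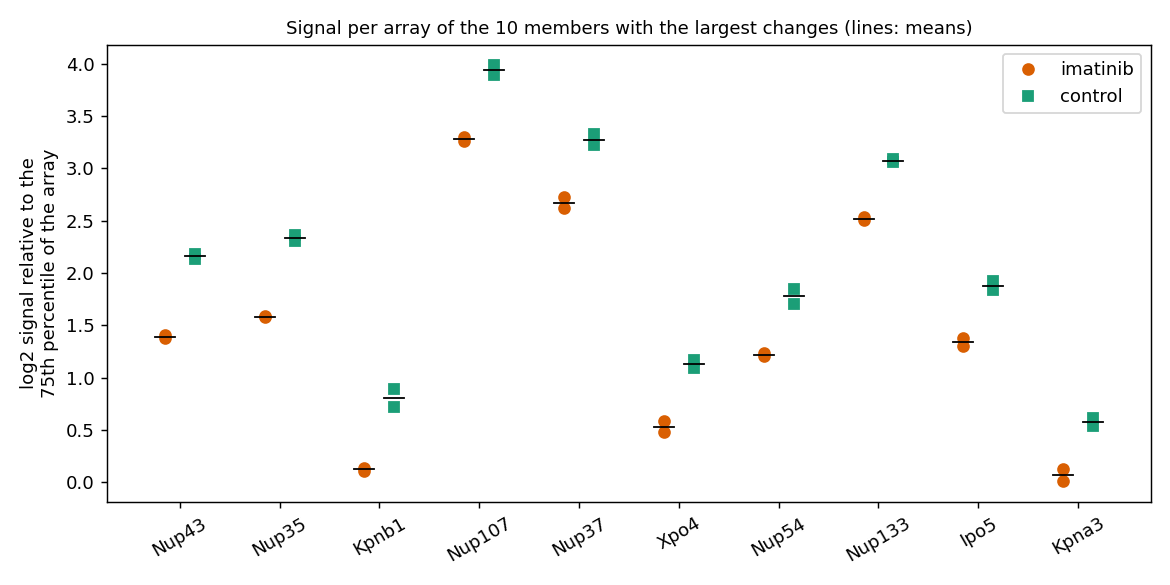
Log2 signal (75th percentile of each array at 0) on each imatinib array (orange circles) and each control array (green squares), for the brightest probe of the 10 members with the largest differences among those that passed the test, with group means as lines. In every one of the 10 genes both imatinib arrays lie below both control arrays. The genes were picked by their differences on these same arrays, so this separation adds no support. Groups did not overlap for 73.7% of all tested probes. Heights are not comparable between genes because each has its own probe.

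The promoters of 4 of these genes are shown because the genes fell together, and that of Nup210, which did not, is shown beside them. Each window of 300 bases lies mostly before the start of the gene and reaches a little past it, is taken from RefSeq on GRCm38.p6 and is printed 5′ to 3′ on the strand of the gene. Capitals mark matches, on either strand, to the searched motifs, which were the CCAAT box CCAAT, the GC box GGGCGG, the ETS-type motif CCGGAAG, the E-box CACGTG, the NRF1-type motif GCGCA and GCGC with any 1 base between them, the E2F-type motif TTTNGCGC, the YY1-type motif AAGATGGCG, the TATA box TATAAA and the cyclic AMP response element TGACGTCA, the last added after the Nup133 sequence had been seen.
Kpnb1 (chr11:97187843-97188142, strand minus): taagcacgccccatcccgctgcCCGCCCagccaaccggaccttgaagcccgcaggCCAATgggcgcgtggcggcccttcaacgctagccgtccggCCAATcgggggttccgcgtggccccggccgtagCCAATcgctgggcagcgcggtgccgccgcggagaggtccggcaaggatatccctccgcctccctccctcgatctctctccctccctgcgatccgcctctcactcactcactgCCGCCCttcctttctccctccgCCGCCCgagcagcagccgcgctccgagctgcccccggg
Nup107 (chr10:117792656-117792955, strand minus): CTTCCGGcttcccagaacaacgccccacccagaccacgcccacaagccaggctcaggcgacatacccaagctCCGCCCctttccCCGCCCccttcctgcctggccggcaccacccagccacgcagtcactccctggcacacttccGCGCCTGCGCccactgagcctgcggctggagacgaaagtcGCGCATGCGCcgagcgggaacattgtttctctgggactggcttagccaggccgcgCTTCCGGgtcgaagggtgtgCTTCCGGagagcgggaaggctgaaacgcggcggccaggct
Nup133 (chr8:123949216-123949515, strand minus): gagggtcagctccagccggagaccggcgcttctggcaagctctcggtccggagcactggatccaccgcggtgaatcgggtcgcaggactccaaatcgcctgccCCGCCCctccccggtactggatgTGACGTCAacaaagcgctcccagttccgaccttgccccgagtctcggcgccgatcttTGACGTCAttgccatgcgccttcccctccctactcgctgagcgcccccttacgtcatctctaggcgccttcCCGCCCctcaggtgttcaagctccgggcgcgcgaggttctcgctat
Nup54 (chr5:92435150-92435449, strand minus): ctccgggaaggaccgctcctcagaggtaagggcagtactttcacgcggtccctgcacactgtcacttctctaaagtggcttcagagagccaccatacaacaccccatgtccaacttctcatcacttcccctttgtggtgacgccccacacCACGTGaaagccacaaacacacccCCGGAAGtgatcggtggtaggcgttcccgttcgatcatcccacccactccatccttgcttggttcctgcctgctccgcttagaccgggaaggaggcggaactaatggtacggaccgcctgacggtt
Nup210 (chr6:91116777-91117076, strand minus): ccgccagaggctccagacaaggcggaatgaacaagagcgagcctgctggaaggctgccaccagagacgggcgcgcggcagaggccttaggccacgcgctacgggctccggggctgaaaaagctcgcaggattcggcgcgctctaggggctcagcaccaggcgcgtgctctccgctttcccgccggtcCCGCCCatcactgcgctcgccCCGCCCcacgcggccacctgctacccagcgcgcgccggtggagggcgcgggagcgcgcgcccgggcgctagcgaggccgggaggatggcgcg

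None of these 5 windows held a TATA box, and no matches within them overlapped each other. The Kpnb1 window held 3 CCAAT boxes and 3 GC boxes. That of Nup107 held 3 ETS-type matches, 2 NRF1-type matches and 2 GC boxes, and that of Nup133 held 2 cyclic AMP response elements and 2 GC boxes. The Nup54 window held 1 E-box and 1 ETS-type match, and the Nup210 window held 2 GC boxes alone. Promoter windows were at hand for 29 of the 38 tested genes, 22 that fell by their brightest probe and 7 that did not pass. A GC box stood in 21 of the 29 genes (72.4%), against 38.2% of all 27025 genes with a window, and a CCAAT box in 16 (55.2%), against 41.1%. ETS-type and E-box matches each stood in 5 of 29 (17.2%), against 9.93% and 8.09%. An NRF1-type match stood in 5 of 29 (17.2%), against 5.19%, and a YY1-type match in 4 (13.8%), against 1.64%. All 5 genes with the NRF1-type match (Ipo9, Nup107, Nup50, Nup62 and Xpo5) and all 4 with the YY1-type match (Nup188, Nup205, Nup50 and Nup88) were among the 22 that fell. So were 14 of 16 with a CCAAT box, 18 of 21 with a GC box and 4 of 5 each with an ETS-type or E-box match. For the E2F-type match it was 2 of 2, for the TATA box 3 of 4 and for the cyclic AMP response element 1 of 2. As 22 of all 29 genes fell and only 7 did not pass, these counts cannot show whether a motif goes with the fall, which was not tested. A TATA box stood in 4 of 29 (13.8%), against 15.7%, an E2F-type match in 2 (6.9%), against 1.57%, and a cyclic AMP response element in 2 (6.9%), against 2.03%. Some matches overlapped each other in windows of Nup155, Nup88 and Nup93. These matches describe letters in the windows, the share over all genes includes genes that were not tested, and 5 of the 29 genes had more than 1 window.

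In the Y complex, the outer ring of the scaffold, 5 of 6 genes fell by their brightest probe, and the median was -0.58. For this role and those below, the shares to set beside the counts are 22.5% of all probes and 34.2% of bright ones. Of all 38 member genes, 27 fell. Nup43 had signals of 1.38 and 1.40 with imatinib and 2.14 and 2.18 in control. It fell by 0.77 (SE 0.059, adjusted p = 0.0032), to 58.7% of control, the largest change of any member. Nup107, a stem subunit of the complex, had 3.30 and 3.26 with imatinib and 3.89 and 3.98 in control, and fell by 0.66 (SE 0.066, adjusted p = 0.0056). Both imatinib arrays lay below both control arrays for each of these genes. Nup37, a small propeller subunit, had 2.73 and 2.62 with imatinib and 3.22 and 3.33 in control, a fall of 0.60 (SE 0.078, adjusted p = 0.0090). Nup133, at the end of the stem, had 2.50 and 2.54 with imatinib and 3.06 and 3.09 in control, a fall of 0.55 (SE 0.058, adjusted p = 0.0061). Nup85 changed less, with 4.36 and 4.34 with imatinib and 4.71 and 4.68 in control (-0.34, adjusted p = 0.016). Nup160 did not pass (-0.39, SE 0.12, adjusted p = 0.063), although its imatinib signals of -0.01 and -0.16 lay below its control signals of 0.18 and 0.43. The RefSeq gene of Nup43 overlaps Pcmt1, and which strand the probes of such pairs read was not analysed here.

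All 5 inner ring genes fell by their brightest probe. Nup35 is measured by a pair of probes that share a run of no more than 6 bases. The brighter one had 1.59 and 1.58 with imatinib and 2.31 and 2.36 in control, and the other had 1.52 and 1.59 with imatinib and 2.20 and 2.37 in control. Both fell by nearly the same amount, 0.75 (SE 0.060, adjusted p = 0.0034) and 0.73 (SE 0.087, adjusted p = 0.0077). Nup205 fell by 0.34 (SE 0.079, adjusted p = 0.033), with 2.47 and 2.37 with imatinib and 2.70 and 2.83 in control. Nup155, which ties the inner ring to the membrane side, fell by 0.22 (SE 0.059, adjusted p = 0.048), close to the threshold. Its signals were 0.84 and 0.84 with imatinib and 1.03 and 1.08 in control.

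Nup93 and Nup188, the other inner ring genes, had probes that disagreed. Their sequences are shown because they read different stretches: whole for Nup188, and the first 30 bases of 60 for Nup93.
Nup188 A_51_P312550: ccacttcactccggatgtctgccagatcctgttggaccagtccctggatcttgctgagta
Nup188 A_55_P2017199: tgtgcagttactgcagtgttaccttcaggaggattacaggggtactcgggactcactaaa
Nup188 A_55_P2404878: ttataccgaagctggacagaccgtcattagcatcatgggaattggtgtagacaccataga
Nup93 A_55_P1955612: ctggggtgggtttccagttttgtttctgtt
Nup93 A_66_P125873: tttggggccagagaatgagaggctacatag

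The probes of each of these genes share no run longer than 5 bases, and where each lies in the transcript was not analysed here. The bright Nup93 probe A_55_P1955612 had 3.67 and 3.62 with imatinib and 4.09 and 4.12 in control, and fell by 0.46 (SE 0.060, adjusted p = 0.0090). The dim probe A_66_P125873 had -5.59 and -5.47 with imatinib and -6.08 and -6.27 in control, and rose by 0.64 (SE 0.098, adjusted p = 0.012). For Nup93 the arrays of the groups did not overlap on either probe, in opposite directions. Nup188 showed the same order. Its brightest probe A_51_P312550 had -1.19 and -1.12 with imatinib and -0.81 and -0.85 in control, a fall of 0.32 (SE 0.063, adjusted p = 0.022). Its middle probe A_55_P2017199 had -2.06 and -1.90 with imatinib and -2.04 and -2.21 in control, and did not pass (0.15, adjusted p = 0.29). Its dimmest probe A_55_P2404878 had -4.22 and -4.01 with imatinib and -4.63 and -4.78 in control, a rise of 0.58 (SE 0.11, adjusted p = 0.019). With a normexp background correction these rises were smaller, 0.24 for Nup93 and 0.27 for Nup188. In RefSeq the Nup188 gene overlaps a long non-coding RNA gene, and Nup93 overlaps the pseudogene Rpl10-ps5 and the microRNA gene Mir138-2. Nup133 and Nup54, which fell, overlap long non-coding RNA genes as well, so such an overlap does not set Nup188 apart.

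**Figure D3:**
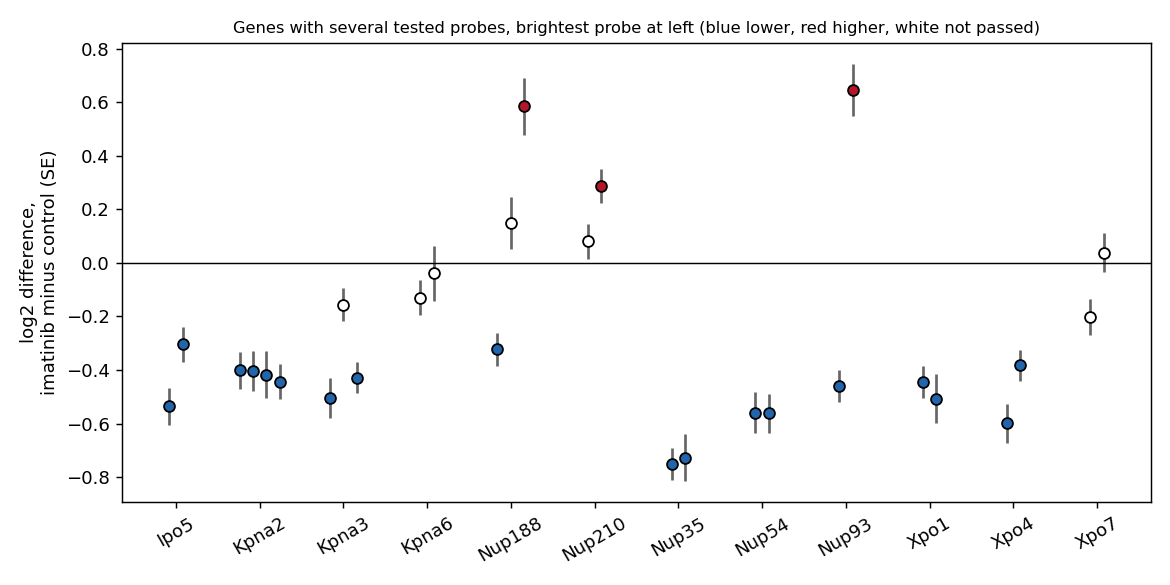
Log2 difference (imatinib minus control, bars are SE) of each probe of the 12 member genes with several tested probes, the brightest probe of a gene at the left, coloured by call. All probes of 6 genes (Ipo5, Kpna2, Nup35, Nup54, Xpo1 and Xpo4) fell, while Nup188, Nup93 and Xpo7 have probes on both sides of 0, those of Xpo7 not passed.

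Nup54 and Nup62, FG nucleoporins of the central channel, fell on every probe. Nup54 had 1.21 and 1.23 with imatinib and 1.71 and 1.85 in control by its brighter probe, a fall of 0.56 (SE 0.076, adjusted p = 0.00996). Its other probe differed by -0.56 as well (adjusted p = 0.0092). Nup62, the main FG protein of the channel, had 5.39 and 5.36 with imatinib and 5.79 and 5.75 in control, a fall of 0.39 (SE 0.059, adjusted p = 0.012). In RefSeq the Nup62 gene overlaps Atf5 and Il4i1b, so its probe could also read their transcripts. Nupl1, the third FG nucleoporin of the channel, whose name does not meet the rule, did not pass (-0.29, adjusted p = 0.080).

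Nucleoporins that line the faces and the membrane of the pore were mixed. On the cytoplasmic face, Nup88 had 2.68 and 2.66 with imatinib and 2.99 and 2.98 in control, and fell by 0.32 (SE 0.057, adjusted p = 0.018). Its partner Nup214, seen by a dim probe, had -4.23 and -4.02 with imatinib and -4.22 and -4.34 in control, with overlapping arrays (0.16, adjusted p = 0.29). In the nuclear basket, Nup50 had 1.31 and 1.30 with imatinib and 1.78 and 1.80 in control, and fell by 0.48 (SE 0.057, adjusted p = 0.0075). Nup153, which anchors the basket, had 2.18 and 2.08 with imatinib and 2.29 and 2.26 in control (-0.15, adjusted p = 0.15). Nup98, a mobile FG nucleoporin made from a precursor shared with Nup96, had -0.24 and -0.27 with imatinib and -0.30 and -0.37 in control (0.08, adjusted p = 0.36). Nup50 and Nup153 were each averaged over 10 spots, and they were not tested against each other.

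Nup210, a membrane-spanning nucleoporin, was among the brightest members and did not fall. Its brighter probe A_55_P2092661 had 5.54 and 5.55 with imatinib and 5.51 and 5.42 in control (0.08, adjusted p = 0.38). Its second probe A_55_P2092696 had 0.11 and 0.14 with imatinib and -0.12 and -0.21 in control, a rise of 0.29 (SE 0.064, adjusted p = 0.030). The rise of this probe was 0.07 with median centring and 0.0075 when scaled by spike-ins, and neither passed. Nup210l, a relative of Nup210, was dim and variable, with -5.20 and -5.77 with imatinib and -4.69 and -4.98 in control (-0.65, SE 0.23, adjusted p = 0.092). The small positive differences of Nup210 by its brighter probe, Nup98, Nup214 and Ipo8 turned negative with median centring and with spike-ins, and that of Nup214 under quantile normalization too. None of the 4 passed the threshold under these scalings.

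**Figure D4:**
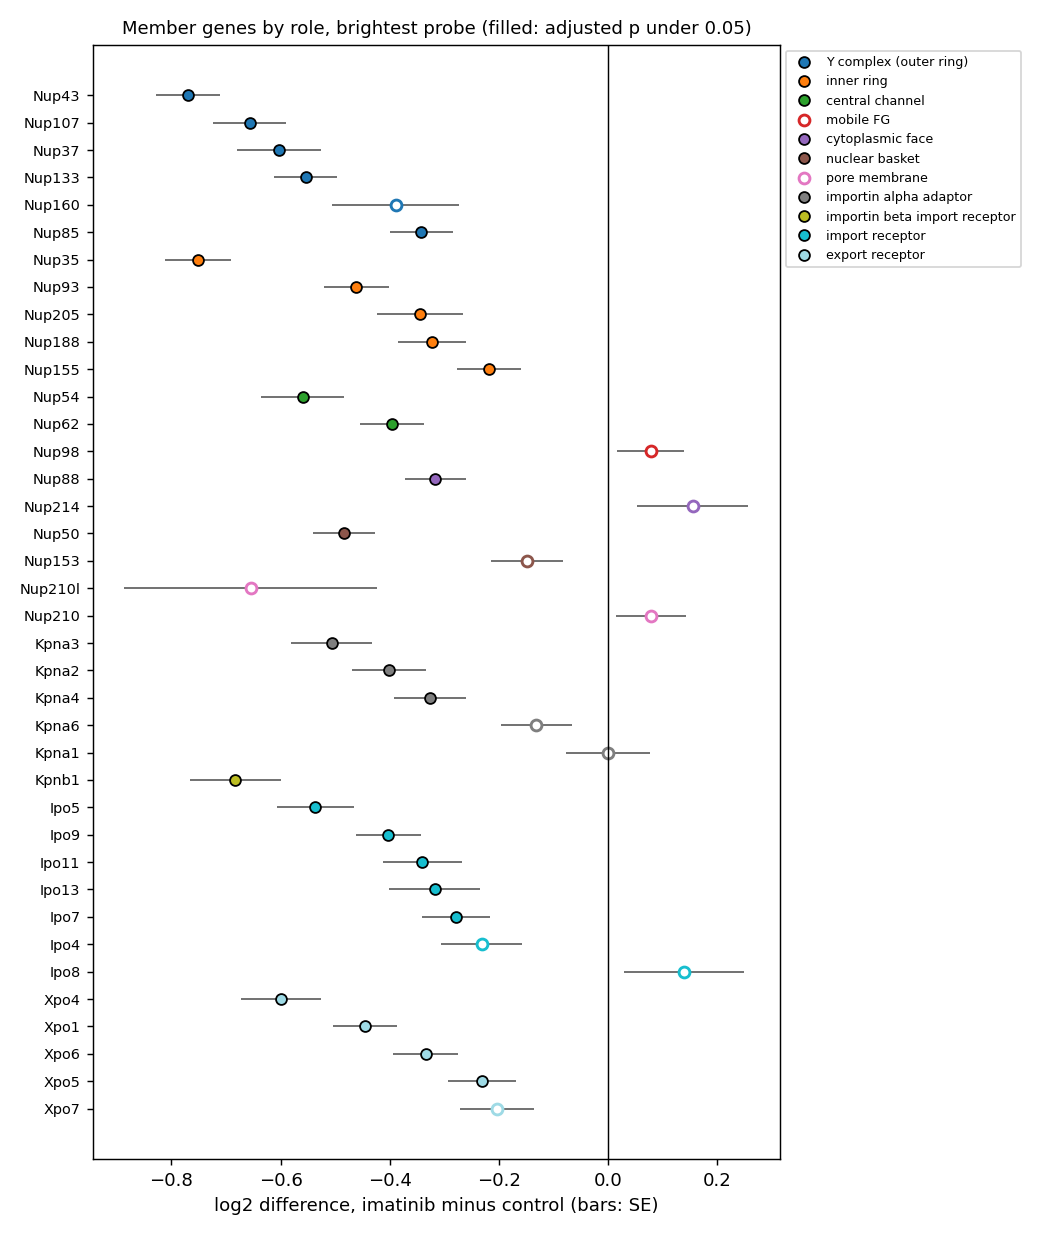
Log2 difference (imatinib minus control, bars are SE) of the brightest probe of each of the 38 tested member genes, grouped by role, with filled points where the adjusted p was under 0.05. All 27 filled points lie below 0, and the 11 open points include Nup98, Nup210, Nup214, Nup153, Kpna1, Kpna6 and Ipo8.

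Among the importin alpha adaptors, 3 of 5 genes fell. Kpna2, the adaptor typical of proliferating cells, was measured by 4 probes that fell by 0.40 to 0.44 (adjusted p from 0.012 to 0.026). The brightest had 5.52 and 5.41 with imatinib and 5.86 and 5.88 in control. Some of these probes share a run of 22 bases, and RefSeq lists a pseudogene, Kpna2-ps, so the target of single probes is uncertain. Kpna3 had 0.13 and 0.01 with imatinib and 0.54 and 0.62 in control by its brightest probe, and fell by 0.51 (SE 0.074, adjusted p = 0.012). Its other probes differed by -0.43 (adjusted p = 0.0094) and -0.16 (adjusted p = 0.12). Kpna4, a close relative of Kpna3, had 0.72 and 0.64 with imatinib and 1.03 and 0.98 in control, a fall of 0.33 (SE 0.066, adjusted p = 0.024).

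Kpna1 and Kpna6, adaptors of another subfamily, did not pass. Kpna1 had -0.75 and -0.82 with imatinib and -0.85 and -0.72 in control, with overlapping arrays and a difference of 0.00069 (SE 0.077, adjusted p = 0.995). The probes of Kpna6 differed by -0.13 (adjusted p = 0.19) and -0.04 (adjusted p = 0.79). Under spike-in scaling both Kpna6 probes passed as lower (-0.41 and -0.32), while Kpna1 did not (-0.28, adjusted p = 0.081).

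Kpnb1, importin beta 1 itself, had 0.11 and 0.14 with imatinib and 0.72 and 0.89 in control. It fell by 0.68 (SE 0.084, adjusted p = 0.0081), to 62.3% of control, the third largest change of the members. Of the 7 numbered importins, relatives of importin beta that bind cargo directly, 5 fell. Ipo5, which carries ribosomal proteins and histones, had 1.38 and 1.30 with imatinib and 1.83 and 1.92 in control by its brighter probe, a fall of 0.54 (SE 0.070, adjusted p = 0.0092), and its other probe fell by 0.30 (adjusted p = 0.027). Ipo9 had -1.16 and -1.10 with imatinib and -0.73 and -0.72 in control, a fall of 0.40 (SE 0.060, adjusted p = 0.012). The groups did not overlap for Kpnb1, Ipo5 or Ipo9.

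Smaller falls were those of Ipo11 (-0.34, adjusted p = 0.027), Ipo13 (-0.32, adjusted p = 0.045) and Ipo7 (-0.28, adjusted p = 0.031). Ipo4 did not pass (-0.23, adjusted p = 0.075), with 2.48 and 2.58 with imatinib and 2.81 and 2.71 in control. Ipo8, the nearest relative of Ipo7, had 0.43 and 0.29 with imatinib and 0.33 and 0.11 in control, so its arrays overlapped (0.14, adjusted p = 0.36). Ipo7 and Ipo8 were not tested against each other.

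Of the 5 exportins 4 fell by their brightest probe, with a median of -0.33. Xpo4, an exportin of the translation factor eIF5A, had 0.48 and 0.59 with imatinib and 1.09 and 1.17 in control, a fall of 0.60 (SE 0.073, adjusted p = 0.0081), and its other probe fell by 0.38 (adjusted p = 0.012). Xpo1, the main exportin of proteins, had 2.02 and 1.97 with imatinib and 2.43 and 2.45 in control, a fall of 0.44 (SE 0.059, adjusted p = 0.0094). Its second probe had 1.47 and 1.35 with imatinib and 1.83 and 2.00 in control, a fall of 0.51 (adjusted p = 0.018). Xpo6, an exportin of actin, had -0.30 and -0.28 with imatinib and 0.02 and 0.07 in control (-0.33, adjusted p = 0.018). Xpo5, which exports microRNA precursors, had 0.02 and -0.01 with imatinib and 0.27 and 0.20 in control (-0.23, adjusted p = 0.049), just past the threshold. Neither probe of Xpo7 passed (-0.20, adjusted p = 0.081, and 0.04, adjusted p = 0.70).

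Genes of nuclear transport whose names do not meet the rule were looked up from a list of 36, of which 35 were measured by a tested probe. Of these, 19 fell and 1 rose (against 22.5% and 19.3% of all probes), with a median of -0.29. Of all probes with a mean signal above the 75th percentile, 34.2% fell and 14.4% rose, with a median of -0.11. Most of the 35 genes stand by such a bright probe. Without imatinib replicate 1, 3 fell (8.57%, against 6.13% of all probes), and without imatinib replicate 2, 3 fell as well (8.57%, against 6.40%), so in these settings the share lay near that of the whole table. Among the other pore proteins 6 of 13 fell and none rose. For this sublist and those below, the shares to set beside the counts are 22.5% of all probes and 34.2% of bright ones. Sec13 of the Y complex had 1.92 and 1.92 with imatinib and 2.42 and 2.49 in control, and fell by 0.53. Nupl2 of the cytoplasmic filaments had 0.96 and 0.99 with imatinib and 1.47 and 1.47 in control, and fell by 0.50. Both imatinib arrays were lower for each of these genes. The membrane protein Ndc1 (Tmem48 in the files) had 1.08 and 1.15 with imatinib and 1.53 and 1.68 in control, and fell by 0.50. The mRNA export factor Gle1 had 0.56 and 0.55 with imatinib and 1.02 and 1.07 in control, and fell by 0.49. The adjusted p of these 4 ran up to 0.014. Seh1l, the other Y complex gene of the list, did not pass by its brightest probe (-0.04, adjusted p = 0.71), while its dimmer probe fell by 0.57 (adjusted p = 0.013).

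In the Ran cycle 5 of 6 genes fell. Ranbp1, which helps Ran to hydrolyse GTP, had 3.43 and 3.37 with imatinib and 4.04 and 4.09 in control, a fall of 0.66 (SE 0.062, adjusted p = 0.0048). Rangrf had 0.22 and 0.28 with imatinib and 0.87 and 0.83 in control, and fell by 0.59 (adjusted p = 0.0060). These were the largest falls of the Ran cycle. Rcc1, the nucleotide exchange factor of Ran, had 3.95 and 3.88 with imatinib and 4.43 and 4.41 in control, and fell by 0.50 (adjusted p = 0.0081). Ran itself had 7.08 and 7.05 with imatinib and 7.44 and 7.41 in control, and fell by 0.36 (adjusted p = 0.014). The dimmer Ran probe did not pass (-0.27, adjusted p = 0.111). Rangap1, the GTPase activator, did not pass (-0.15, adjusted p = 0.099).

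Of the 7 other transport receptors 4 fell. Cse1l, which returns importin alpha to the cytoplasm, had 1.02 and 0.94 with imatinib and 1.47 and 1.66 in control, and fell by 0.59 (adjusted p = 0.013). Nutf2, which carries Ran into the nucleus, had 4.25 and 4.23 with imatinib and 4.72 and 4.74 in control, and fell by 0.49 (adjusted p = 0.0073). The groups did not overlap for either gene. The import receptor Tnpo1 had 2.43 and 2.32 with imatinib and 2.88 and 2.76 in control, and fell by 0.44 (adjusted p = 0.018), while its 2 dimmer probes did not pass (-0.19 and 0.05). The tRNA exportin Xpot had 1.78 and 1.72 with imatinib and 1.97 and 2.01 in control, and fell by 0.24 (adjusted p = 0.045), near the threshold.

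Factors of mRNA export went both ways, with 4 of 9 lower and 1 higher. Mcm3ap had -3.35 and -3.18 with imatinib and -2.78 and -2.63 in control, and fell by 0.56 (adjusted p = 0.017). Eny2 had 3.09 and 3.07 with imatinib and 3.57 and 3.57 in control by its brightest probe, and fell by 0.49 (adjusted p = 0.0071). Its second probe fell by 0.47 (adjusted p = 0.00965), while its dimmest probe did not pass (-0.12, adjusted p = 0.425). Mcm3ap and Eny2 are both known from the complex that couples transcription to export. Nxt1, the partner of the mRNA export receptor, had 3.35 and 3.27 with imatinib and 3.74 and 3.69 in control, and fell by 0.41 (adjusted p = 0.014). Nxt2, a relative of Nxt1, had -1.28 and -1.32 with imatinib and -1.67 and -1.70 in control, and rose by 0.38 (SE 0.059, adjusted p = 0.013). The receptor Nxf1 itself differed by -0.0064 (adjusted p = 0.95). Nupl1, Seh1l, Rangap1 and Nxf1 were chosen after their values were seen.

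Across 13 alternative settings the 4 probes of Nup43, Nup35 and Nup107 passed as lower each time. Calls of the other leading genes ended when 1 imatinib array was left out, with adjusted p from 0.05 to 0.07. This applied to Kpnb1, Xpo4 and Nup133 without imatinib replicate 1, to Nup37 and Kpna3 without imatinib replicate 2, and to Nup54 and Ipo5 without either one. Kpna3 also missed the threshold (adjusted p = 0.053) when dim probes were kept, which tests 39337 probes.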

How the data were processed

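RNA was measured on 4 Agilent one-colour (Cy3) arrays of design 026655. Each spot has an intensity from Feature Extraction 9.1.3.1, per the file headers. Its processed signal had background removed by that program, with no scaling across arrays. A table of log2 values was deposited too, for which the series text names GeneSpringGX, and it matched log2 of the processed signal minus a constant within 0.01 for at least 99.88% of probes. The imatinib columns had medians of -4.00 and -3.92, and the control columns -4.10 and -4.17.

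From the scanner files, control spots and outlier spots were left out, log2 processed signals of spots of 1 probe were averaged, and each array was set to 0 at its 75th percentile. Probes that both samples of a group showed well above background were fitted with limma 3.58.1 in R 4.3.3 (lmFit and eBayes, two-sided, no covariates, 2 residual and 2.05 prior degrees of freedom), after a test on simulated data. The number of arrays limits the precision. SE and SD are on the log2 scale. All 58 member probes matched a RefSeq symbol (GRCm38.p6). Per-array values are given by a rule: the 10 member genes with the largest differences among those past the threshold (brightest probe), genes whose probes disagree in sign with at least 1 past the threshold, and the up to 4 genes with the largest differences past the threshold in each list of other pathway genes. Further members were given values after these had been seen. Members and lists were chosen with earlier results of these data known. Alternatives were normexp background correction (offset 50), 3 other scalings, other filters on dim probes, the deposited table, another variance model, a replicate block, each array left out and other choices of probes. The slide could not be a block, since all arrays lay on 1.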

Additional observations from a re-analysis of the deposited data

How the results depend on the processing

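The direction of the list held under all alternatives run, while the number of calls did not. The counts of member probes that fell and rose were 36 and 3, with 22.5% of all probes lower. With median centring they were 43 and 2, with a median of -0.56 for the members and -0.22 for all probes, of which 39.4% fell. With spike-in scaling they were 44 and 2, with medians of -0.62 and -0.28, and 46.3% of all probes fell. They were 15 and 0 without a filter on dim probes (5.42% of all probes lower, 7.21% higher) and 21 and 1 with the replicate block (13.8% lower, 14.4% higher). Leaving out 1 array gave 7 to 28 that fell (6.13% to 16.4% of all probes) and 0 to 3 that rose, with medians of -0.38 to -0.34. The array left alone in its group was then taken to vary like the other group. By the brightest probe of a gene 0 rose, as among members brighter than the 75th percentile. Among the 26 genes with 1 tested probe, 18 fell and 0 rose. These last 2 settings were chosen after seeing the data. Of the other pathway genes, 29 fell and 0 rose with median centring, 31 and 0 when scaled by spike-ins, 8 and 0 without a filter on dim probes, and 3 to 14 and 0 to 1 with 1 array left out.

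Whether arrays with the same replicate number belong together is not stated in the labels. Those numbered 1 lay at slide positions 1 and 2, and those numbered 2 at positions 3 and 4. Deviations of same-numbered arrays had an r of -0.069 across probes, and the block ended 18 of the member probe calls and added 1. Over single probes, no called difference reversed its sign under any of the 13 alternatives. With 2 arrays a group and 2 residual degrees of freedom, differences near 0.2 lay at the limit of what could be called.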
